A study of Mus musculus with 12 samples.

Results

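A set of 9 genes that mark neural progenitors were measured by bulk RNA sequencing of mouse embryos: *Nes*, *Vim*, *Sox1*, *Sox2*, *Sox3*, *Msi1*, *Fabp7*, *Prom1* and *Slc1a3*. They were taken by name from a list that was chosen with earlier results of these data known. They make up 9 of the 23420 genes in each table of counts. RNA came from whole embryos at E12.5, and there were 3 libraries in each of 4 groups. The *Carm1* line, on the C57BL/6 strain, gave embryos with the genotypes *Carm1* null and *Carm1* wild-type from crosses of heterozygous *Carm1*tm1Mtb mice, an allele that lacks exons 2 and 3 of the gene for an arginine methyltransferase. The *Pax3* line, on a mixed strain, gave embryos with the genotypes *Pax3* null and *Pax3* wild-type from crosses of heterozygous *Pax3*Sp2h (splotch) mice, an allele that inactivates a transcription factor of the dorsal neural tube, neural crest and muscle precursors. No other allele or treatment was shared by all groups. The 2 lines differ in strain and colony as well as in the mutated gene, so a difference between lines cannot be assigned to one of these, and *Pax3* null embryos are known to have neural tube defects often.

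Neural progenitors of the midgestation embryo are dividing neuroepithelial cells that line the ventricles of the brain and the canal of the spinal cord, and that turn into radial glia as the first neurons are made. The SOXB1 transcription factors *Sox1*, *Sox2* and *Sox3* hold these cells in the progenitor state, and their mRNA falls when a cell becomes a neuron. *Nes* and *Vim* encode the intermediate filaments nestin and vimentin, *Msi1* an RNA-binding protein, *Fabp7* the brain fatty acid binding protein, *Prom1* the membrane protein prominin (CD133), and *Slc1a3* the glutamate transporter GLAST of radial glia. *Vim* is also made by mesenchyme and endothelium, and several of the others are found outside the nervous system, so in whole embryos their counts are a sum over tissues. In such bulk RNA, fewer cells of a type and less RNA per cell cannot be told apart.

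Values are counts of reads on the exons of each gene, given as counts scaled to library size (CPM) after scaling the libraries of each line by edgeR's TMM factors. Library totals ranged from 17183344 to 23518692 counts, and the 9 genes were covered by 365 (*Sox3*, *Carm1* wild-type replicate 1) to 21283 counts (*Vim*, *Pax3* wild-type replicate 3), so all 9 passed the filter on low counts in both lines. The targeted genes followed the labels: *Carm1* had 69.3 to 76.2 CPM in *Carm1* null and 137 to 151 CPM in *Carm1* wild-type libraries, and *Pax3* had 18.1 to 22.4 CPM in *Pax3* null and 25.0 to 30.9 CPM in *Pax3* wild-type libraries. Y-linked genes were counted in *Carm1* wild-type replicate 3, *Pax3* wild-type replicates 2 and 3 and *Pax3* null replicate 3 (4447 to 6118 counts, against 0 to 23 in the other 8 libraries), so the groups hold unequal numbers of such libraries. The labels do not say how embryos were shared among litters, and adjusted p-values measure only the spread between these libraries.

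In *Carm1* null embryos most of the progenitor genes were higher than in *Carm1* wild-type embryos. *Nes*, *Sox1*, *Sox2*, *Sox3*, *Fabp7*, *Vim* and *Msi1* rose, by 1.11- to 1.36-fold, *Slc1a3* fell, and *Prom1* did not pass the test. Thus 8 of the 9 genes were called, against 13.3% of all 15811 genes tested in this line, and 7 of the 9 rose, against 5.49%. Of all genes called in this line 41.2% were higher, and 58.8% when the fit held offsets for the length and GC content of transcripts. With these offsets 8 of the 9 progenitor genes were called higher, against 1848 of all 15811 genes tested. All 3 null libraries lay above all 3 wild-type libraries for 7 of the 9 genes, against 14.2% of all genes. The median log2 fold change was 0.33 over the 9 genes and 0.0014 over all genes tested. In *Pax3* null embryos, *Sox1*, *Sox2*, *Sox3*, *Msi1* and *Fabp7* rose, *Vim* fell, and *Nes*, *Prom1* and *Slc1a3* did not pass the test. Here 6 of the 9 genes were called, against 24.5% of all 15724 genes tested, and 5 rose, against 14.0%. With length and GC offsets 3 of the 9 were called in this line, against 2723 of all 15724 genes tested. *Sox1* and *Sox2* kept the call, *Slc1a3* gained it, and *Sox3*, *Msi1*, *Fabp7* and *Vim* lost it. All null libraries lay above all wild-type libraries for 3 of the 9, against 20.7% of all genes. The median log2 fold change was 0.20 over the 9 genes and -0.0026 over all genes. The plot of log2 fold changes sets the lines side by side.

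**Figure D1:**
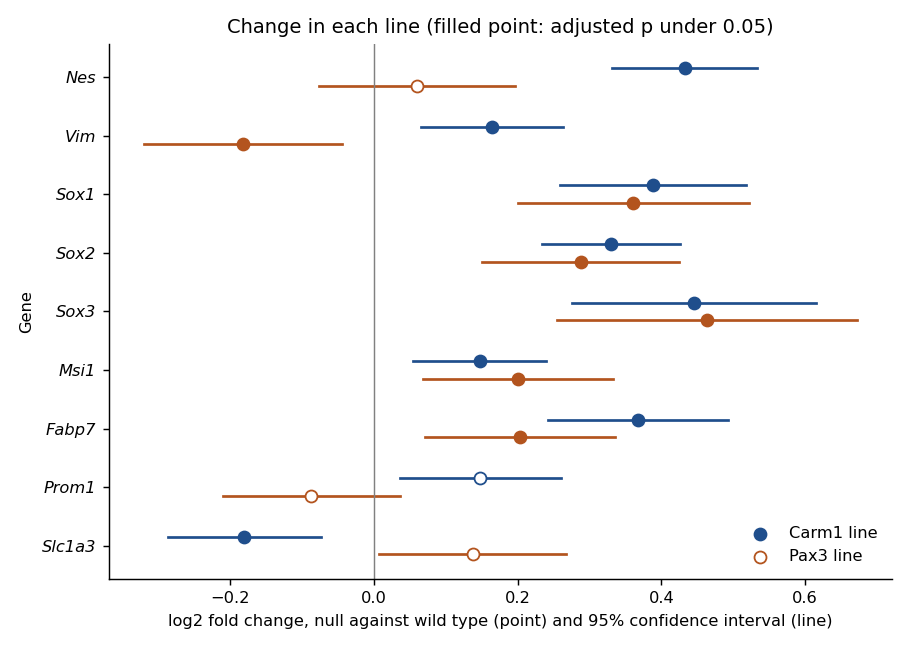
Log2 fold change of each neural progenitor gene, null against wild type, in the Carm1 line (blue) and the Pax3 line (orange). Points are edgeR estimates from 3 libraries against 3, lines are 95% confidence intervals, and filled points passed an adjusted p of 0.05. The 3 Sox genes sit right of 0 in both lines, between 0.29 and 0.46, whereas Nes is at 0.43 in the Carm1 line and 0.06 in the Pax3 line, and Vim is at 0.16 and -0.18.

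The intermediate filament gene *Nes* lies on chromosome 3 (GRCm38, chr3:87971078-87980451, plus strand, 4 exons). It had 603, 592 and 566 CPM in the 3 *Carm1* null libraries and 454, 453 and 397 CPM in the *Carm1* wild-type libraries. Every null library was above every wild-type library. *Nes* thus rose by 0.43 on the log2 scale (SE 0.050, adjusted p = 1.3e-07), to a mean of 587 ± 18.6 CPM from 435 ± 32.4 CPM (SD, n = 3 in each group). In the other line *Nes* had 454, 498 and 419 CPM in *Pax3* null libraries and 440.1, 456 and 419.6 CPM in *Pax3* wild-type libraries. These groups overlapped, with a log2 fold change of 0.06 (95% confidence interval -0.08 to 0.20, adjusted p = 0.56). *Pax3* null replicate 2 held the highest *Nes* level of that line, and without it the log2 fold change was -0.0063. The promoter is shown because *Nes* is one of 4 progenitor genes that were called in the *Carm1* line under all 15 alternatives and have an entry in the promoter table. It is RefSeq sequence of GRCm38.p6, chr3:87970843-87971142, plus strand, from 250 bases before to 50 bases after the start, and it holds none of the 4 motifs described with the Sox genes, so no base is in capitals.
Nes promoter: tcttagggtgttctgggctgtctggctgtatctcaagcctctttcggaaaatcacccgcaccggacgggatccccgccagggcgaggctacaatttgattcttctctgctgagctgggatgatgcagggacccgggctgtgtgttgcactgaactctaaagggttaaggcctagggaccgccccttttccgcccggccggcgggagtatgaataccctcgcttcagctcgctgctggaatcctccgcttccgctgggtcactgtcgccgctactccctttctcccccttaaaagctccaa

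The vimentin gene *Vim* (chr2:13573927-13582826, plus strand, 9 exons) had the highest level of the 9 genes and went in opposite directions in the 2 lines. *Carm1* null libraries had 807, 741 and 737 CPM and *Carm1* wild-type libraries 654, 688 and 697 CPM. The groups did not overlap, and *Vim* rose by a log2 fold change of 0.16 (SE 0.048, adjusted p = 0.019), with means of 762 ± 39.4 CPM in null and 679 ± 22.5 CPM in wild-type libraries (SD, n = 3 in each group). The call was kept in 10 of 15 alternatives and rested on single libraries, since the adjusted p was 0.20 without null replicate 1, 0.054 without null replicate 2 and 0.066 without wild-type replicate 2. *Pax3* null libraries had 805, 746 and 776 CPM and *Pax3* wild-type libraries 856, 871 and 914 CPM. Here every null library was below every wild-type library, and the log2 fold change was -0.18 (SE 0.067, adjusted p = 0.047), with means of 776 ± 29.6 CPM in null and 880.2 ± 30.5 CPM in wild-type libraries (SD, n = 3 in each group). That call was kept in 8 of 15 alternatives and was lost when any library other than *Pax3* wild-type replicate 1 was left out (adjusted p of 0.081 to 0.16). The ratio of *Nes* to *Vim* CPM was 0.747 to 0.798 in *Carm1* null and 0.571 to 0.694 in *Carm1* wild-type libraries, and 0.539 to 0.668 in *Pax3* null and 0.459 to 0.524 in *Pax3* wild-type libraries. As a description, the ratio was higher in the null libraries of both lines, with no overlap.

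**Figure D2:**
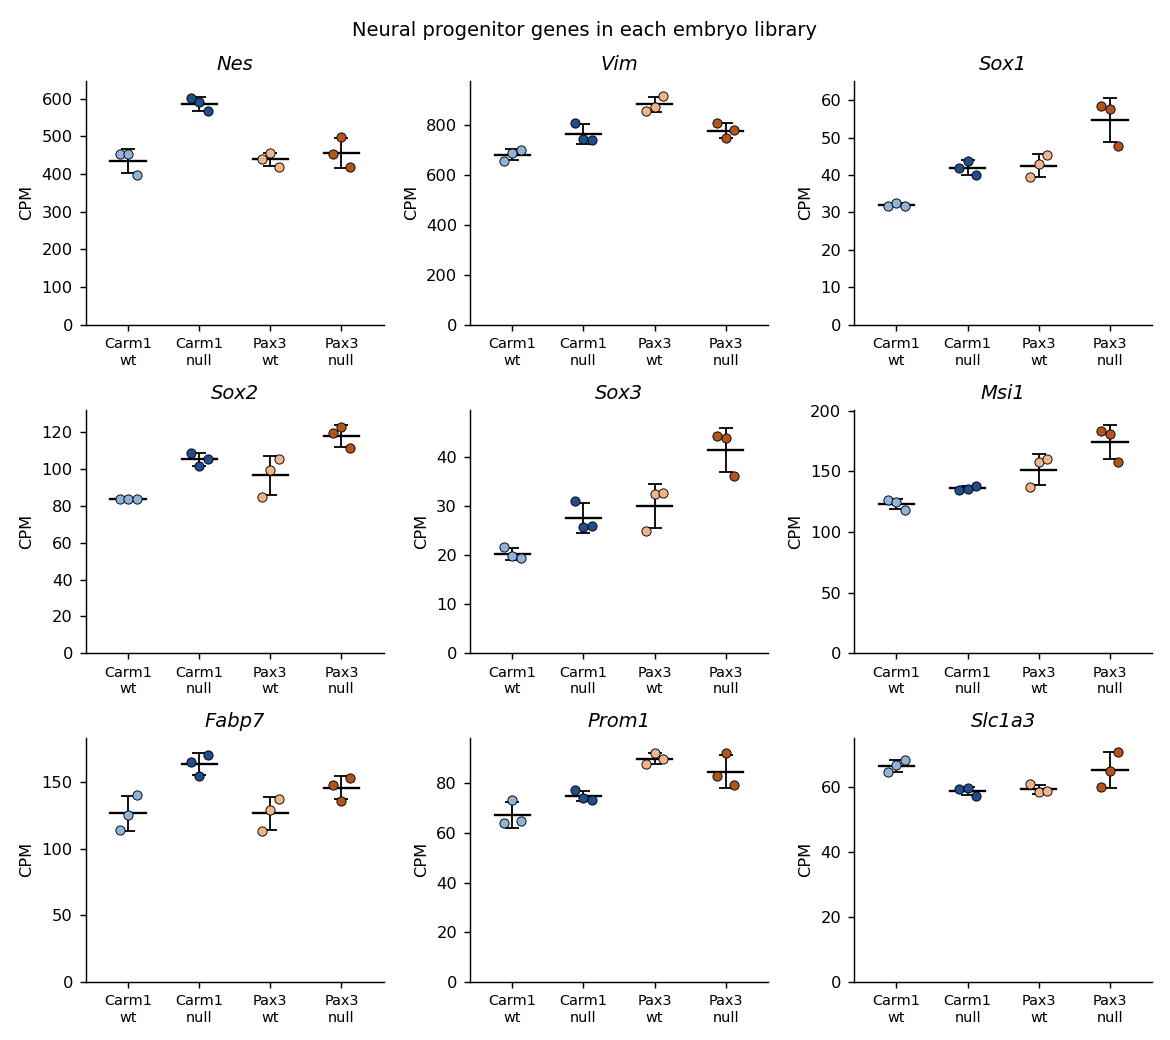
CPM (vertical axes, from 0) of the 9 neural progenitor genes in the 12 libraries, grouped by genotype. Each point is 1 library, horizontal bars are group means and whiskers are the SD of 3 libraries. Sox1, Sox2 and Sox3 are higher in the null libraries of both lines, Nes is raised in Carm1 null libraries (566 to 603 CPM), and Slc1a3 is lower in Carm1 null libraries (57.4 to 59.8 CPM) than in Carm1 wild-type libraries (64.7 to 68.3 CPM).

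The 3 SOXB1 genes rose in both lines. Each is a gene of 1 exon, *Sox1* on chr8:12395295-12400126 (plus strand), *Sox2* on chr3:34650405-34652461 (plus strand) and *Sox3* on chrX:60891366-60893430 (minus strand). They encode DNA-binding proteins with a near-identical HMG box, so reads from that region could in principle be counted for the wrong gene. The stretch of 90 coding bases in which the 3 genes are most alike is shown for this reason, 5′ to 3′, with capitals at each position where the 3 bases are not all the same (GENCODE transcripts, codons 54 to 83 of *Sox1*, 46 to 75 of *Sox2* and 147 to 176 of *Sox3*).
Sox1: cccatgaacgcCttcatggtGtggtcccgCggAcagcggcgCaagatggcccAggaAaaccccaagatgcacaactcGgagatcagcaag
Sox2: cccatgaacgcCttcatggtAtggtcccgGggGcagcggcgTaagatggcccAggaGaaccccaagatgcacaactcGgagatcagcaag
Sox3: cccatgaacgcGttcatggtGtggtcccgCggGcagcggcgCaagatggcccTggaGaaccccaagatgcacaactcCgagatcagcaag
*Sox1* and *Sox2* shared 94.4% of these bases and *Sox2* and *Sox3* 93.3%. Over the whole transcripts, the longest identical run was 45 bases between *Sox1* and *Sox3*, 38 between *Sox1* and *Sox2* and 32 between *Sox2* and *Sox3*. Reads were paired and 150 bases long, and no other pair of the 9 genes shared a run of more than 21 bases.

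*Sox1* had 42.0, 43.9 and 40.0 CPM in *Carm1* null and 31.8, 32.5 and 31.8 CPM in *Carm1* wild-type libraries. The groups were well apart, and the gene rose by a log2 fold change of 0.39 (SE 0.064, adjusted p = 4.9e-05). The 3 *Pax3* null libraries had 58.5, 57.5 and 47.9 CPM of *Sox1* and the *Pax3* wild-type libraries 39.4, 42.8 and 45.3 CPM. Here too no null library reached down to the wild-type range, although null replicate 3 came close, and the log2 fold change was 0.36 (SE 0.078, adjusted p = 0.0013). Both calls were kept in all 15 alternatives of their line.

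*Sox2*, which neural progenitors need to stay undifferentiated, had 109, 102 and 106 CPM in *Carm1* null libraries. The *Carm1* wild-type libraries were almost alike at 83.8, 83.9 and 83.8 CPM. The log2 fold change was 0.33 (SE 0.047, adjusted p = 6.6e-06), kept in all 15 alternatives. In *Pax3* null libraries the gene had 119.8, 123 and 111 CPM, and in *Pax3* wild-type libraries 85.0, 99.6 and 106 CPM. The wild-type libraries of this line were more spread, with replicate 1 the lowest, but remained below the null libraries, and the log2 fold change was 0.29 (SE 0.067, adjusted p = 0.0027), also kept in all 15. *Sox2* lies within an intron of the noncoding gene *Sox2ot* on the same strand and shares no exon base with it. *Sox2ot* held 135 to 355 counts per library and passed the test in neither line (adjusted p = 0.67 in the *Carm1* line and 0.26 in the *Pax3* line).

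*Sox3*, which is X-linked, was the lowest of the 9 genes in CPM. It had 31.1, 25.6 and 25.9 CPM in *Carm1* null and 21.6, 19.8 and 19.4 CPM in *Carm1* wild-type libraries, with no overlap and a log2 fold change of 0.44 (SE 0.083, adjusted p = 0.000303). *Pax3* null libraries had 44.1, 43.8 and 36.1 CPM and *Pax3* wild-type libraries 24.9, 32.5 and 32.6 CPM. The groups were again apart, with a log2 fold change of 0.46 (SE 0.10, adjusted p = 0.0020). Once length and GC offsets were added, the estimate in the *Pax3* line was 0.15 and the call was lost (adjusted p = 0.22). With a term for the Y-linked libraries the log2 fold changes were 0.41 (adjusted p = 0.0010) and 0.47 (adjusted p = 0.0078), close to the values without it.

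Among the SOXB1 genes *Sox2* was the most abundant in every library. It made up 63.5% to 71.9% of their summed level per length in the 12 libraries, *Sox3* 16.5% to 23.3% and *Sox1* 11.4% to 13.3%. The difference between the lines in the effect of the mutation was 0.04 for *Sox1* (95% confidence interval -0.16 to 0.24, adjusted p = 0.83), 0.05 for *Sox2* (-0.12 to 0.22, adjusted p = 0.71) and -0.01 for *Sox3* (-0.30 to 0.28, adjusted p = 0.98) on the log2 scale. None passed the test, and the intervals leave room for differences of up to 0.30. With length and GC offsets the differences were 0.14 for *Sox1*, 0.17 for *Sox2* and 0.26 for *Sox3*, and again none passed.

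Promoters of 7 of the 9 genes were in the RefSeq table of GRCm38.p6, each 300 bases long. The promoters of *Sox1*, *Sox2* and *Fabp7* are shown because these genes, like *Nes*, were called higher in *Carm1* null embryos under every alternative. The motifs searched on both strands were the CCAAT box, the TATA box, a SOX core and a palindromic paired homeodomain site, none of which contains another, though matches may overlap in part. Matches are in capitals, and the CCAAT box on the other strand reads ATTGG. All sequences run 5′ to 3′ on the plus strand, which is the strand of these genes, at chr8:12395269-12395568, chr3:34649745-34650044 and chr10:57784673-57784972. They are placed by the start in the promoter table, which can differ from the GENCODE start of the loci above. The *Sox2* window ends before its GENCODE start (34650405), and most of the *Sox1* window lies past its GENCODE start (12395295).
Sox1 promoter: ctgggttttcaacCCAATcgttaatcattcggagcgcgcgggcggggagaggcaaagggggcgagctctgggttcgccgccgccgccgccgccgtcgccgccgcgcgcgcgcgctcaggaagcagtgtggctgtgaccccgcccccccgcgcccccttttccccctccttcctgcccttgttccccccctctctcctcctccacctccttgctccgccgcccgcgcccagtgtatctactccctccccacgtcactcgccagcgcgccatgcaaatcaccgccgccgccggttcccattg
Sox2 promoter: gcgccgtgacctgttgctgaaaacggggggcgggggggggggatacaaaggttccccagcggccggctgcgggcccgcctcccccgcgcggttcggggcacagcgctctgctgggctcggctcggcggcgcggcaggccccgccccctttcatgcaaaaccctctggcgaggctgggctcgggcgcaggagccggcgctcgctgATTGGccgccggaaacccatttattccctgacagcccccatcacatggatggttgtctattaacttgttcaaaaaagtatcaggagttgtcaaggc
Fabp7 promoter: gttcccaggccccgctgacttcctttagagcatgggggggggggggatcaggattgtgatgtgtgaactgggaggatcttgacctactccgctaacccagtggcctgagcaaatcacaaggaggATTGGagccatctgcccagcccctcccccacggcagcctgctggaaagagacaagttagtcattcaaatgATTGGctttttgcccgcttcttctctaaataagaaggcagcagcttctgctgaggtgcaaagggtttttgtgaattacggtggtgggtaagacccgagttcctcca
The CCAAT box was found in 6 of the 7 promoters, with *Nes* the exception, and in 37.4% of the 32851 promoters of the table. The TATA box (letters TATAAA) was found in *Vim* and *Slc1a3*, and in 13.6% of all promoters. The SOX core (letters CATTGT) was in 12.6% of all promoters and the paired homeodomain site in 0.4%, and neither was in any of the 7. The *Sox1* promoter was the richest in CpG, with 37 CpG and a GC content of 70.7%, against 3 CpG and 45.3% in *Slc1a3*.

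*Msi1* (chr5:115429599-115455698, plus strand, 15 exons), which encodes Musashi 1, a translational regulator of neural stem cells, changed less than the Sox genes. *Carm1* null libraries had 135, 136 and 138 CPM and *Carm1* wild-type libraries 126, 124 and 118 CPM. The groups were close but apart, and *Msi1* rose by a log2 fold change of 0.15 (SE 0.045, adjusted p = 0.026). Only 7 of 15 alternatives kept the call, which was lost without any 1 of the null libraries (adjusted p of 0.069 to 0.11), without wild-type replicate 2 (0.071) and without wild-type replicate 3 (0.091). *Pax3* null libraries had 183, 181 and 158 CPM and *Pax3* wild-type libraries 137, 157 and 160.1 CPM. Null replicate 3 fell within the wild-type range, and the log2 fold change was 0.20 (SE 0.064, adjusted p = 0.025). The call was lost with length and GC offsets (log2 fold change 0.10, adjusted p = 0.38), without wild-type replicate 1 (adjusted p = 0.13), without null replicate 1 (0.13) and without null replicate 2 (0.11).

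*Fabp7* (chr10:57784881-57788450, plus strand, 4 exons), a lipid carrier of radial glia that is also found in Schwann cell precursors, rose in both lines. It had 165, 155 and 171 CPM in *Carm1* null and 114, 125 and 140.5 CPM in *Carm1* wild-type libraries. Even the lowest null library was above the highest wild-type library, and the log2 fold change was 0.37 (SE 0.060, adjusted p = 0.000274), kept in all 15 alternatives. In the *Pax3* line its level was 148, 136 and 153 CPM in null and 113, 129 and 138 CPM in wild-type libraries. The groups overlapped by 1 library each, with a log2 fold change of 0.20 (SE 0.064, adjusted p = 0.022). That call was kept in 10 of 15 alternatives and was lost with length and GC offsets (log2 fold change 0.09, adjusted p = 0.22), in a joint fit of all 12 libraries (0.055), without wild-type replicate 1 (0.12), without null replicate 1 (0.080) and without null replicate 3 (0.14). Markers of Schwann cell precursors moved the other way in the *Pax3* line: 6 of 8 fell, against 1653 of all 15724 genes tested, and 2 did not pass. Their summed level was 142 to 146 CPM in null and 198 to 204 CPM in wild-type libraries. In the *Carm1* line 1 of 8 rose (*Ednrb*, an endothelin receptor, by a log2 fold change of 0.30), against 868 of all 15811 genes tested. The sums were 222 to 229 and 205 to 213 CPM. No marker was at 0 in any group, and the part of these cells in the *Fabp7* counts was not tested.

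*Prom1* (chr5:43993620-44102032, minus strand, 27 exons) passed the test in neither line. The *Carm1* null libraries had 77.1, 74.3 and 73.2 CPM and the *Carm1* wild-type libraries 64.0, 73.5 and 64.9 CPM. Wild-type replicate 2 reached into the null range, and the log2 fold change was 0.15 (95% confidence interval 0.04 to 0.26, adjusted p = 0.071). Without that library it was 0.22 and was called (adjusted p = 0.019), as it was with length and GC offsets (adjusted p = 0.0063). *Pax3* null libraries had 82.9, 92.1 and 79.2 CPM and *Pax3* wild-type libraries 87.8, 92.1 and 90.04 CPM, with a log2 fold change of -0.09 (-0.21 to 0.04, adjusted p = 0.32). An annotated antisense gene shares 424 exon bases (5.91%) with *Prom1*. It has no row in the tables, and since the strand setting of the counting is not stated, reads from it cannot be told apart from *Prom1*.

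*Slc1a3* (chr15:8634124-8710764, minus strand, 10 exons), a radial glia gene that is later strong in astrocytes, was the 1 progenitor gene that fell in *Carm1* null embryos. It had 59.3, 59.8 and 57.4 CPM in *Carm1* null and 64.7, 66.9 and 68.3 CPM in *Carm1* wild-type libraries. The groups did not overlap, and the log2 fold change was -0.18 (SE 0.052, adjusted p = 0.018). The call was kept in 11 of 15 alternatives and was lost in DESeq2 (adjusted p = 0.057), without null replicate 1 (0.058), without null replicate 3 (0.095) and without wild-type replicate 2 (0.076). *Pax3* null libraries had 60.0, 65.1 and 70.9 CPM and *Pax3* wild-type libraries 61.0, 58.5 and 58.7 CPM. Null replicate 1 lay within the wild-type range, and the log2 fold change of 0.14 (95% confidence interval 0.01 to 0.27, adjusted p = 0.12) did not pass the test. With length and GC offsets it was 0.23 and was called (adjusted p = 0.0058).

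The difference between the lines was tested directly, as the effect in the *Carm1* line minus that in the *Pax3* line in one edgeR fit of all 12 libraries. It passed for 4 of the 9 genes, against 19.1% of the 16292 genes tested. *Nes* (0.38, SE 0.084, adjusted p = 0.0014) and *Vim* (0.36, SE 0.079, adjusted p = 0.0014) had the more positive effect in the *Carm1* line and were called in all 17 alternatives. *Prom1* (0.25, SE 0.084, adjusted p = 0.036) was called in 8 of 17, its adjusted p being 0.052 to 0.13 when any of 8 single libraries was left out and 0.098 with length and GC offsets. *Slc1a3* (-0.31, SE 0.083, adjusted p = 0.0084) had the more negative effect in the *Carm1* line, 1 gene of 9 against 10.5% of all genes called in that direction, and lost the call without *Pax3* null replicate 3 (adjusted p = 0.051). *Msi1* (-0.04, 95% confidence interval -0.20 to 0.12, adjusted p = 0.76) and *Fabp7* (0.18, -0.04 to 0.39, adjusted p = 0.26) did not pass, though *Fabp7* did with length and GC offsets (0.31, adjusted p = 0.000822).

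Levels were compared between the 9 genes per kb of annotated exon. In *Carm1* wild-type embryos *Vim* led with 143 ± 4.73 CPM per kb (SD, n = 3), followed by *Fabp7* with 101 ± 10.6, *Nes* with 67.8 ± 5.05, *Sox2* with 40.8 ± 0.034 and *Msi1* with 21.2 ± 0.731. *Sox3* had 9.82 ± 0.586, *Prom1* 9.40 ± 0.730, *Slc1a3* 7.80 ± 0.213 and *Sox1* 6.63 ± 0.091 CPM per kb. *Sox3* and *Prom1* overlapped in the wild-type libraries of both lines and *Prom1* and *Sox1* in *Pax3* null libraries, while all other neighbours in the order were apart. The first 7 places were held by the same genes in all 4 groups, and *Sox1* and *Slc1a3* took the last 2 places in either order. When the longest transcript replaced the union of exons, *Vim*, *Fabp7* and *Nes* still led in every group, *Prom1* stood above *Sox3*, *Slc1a3* passed *Sox3* in *Carm1* wild-type embryos (15.0 against 9.82 CPM per kb), and *Msi1* passed *Sox2* in *Pax3* wild-type embryos. That length also raised values by over 1.5 times, in *Carm1* wild-type embryos to 232 CPM per kb for *Vim*, 39.3 for *Msi1* and 16.5 for *Prom1*. Between replicates, the CV of a gene in CPM was at most 14.8% (*Sox3*, *Pax3* wild-type).

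**Figure D3:**
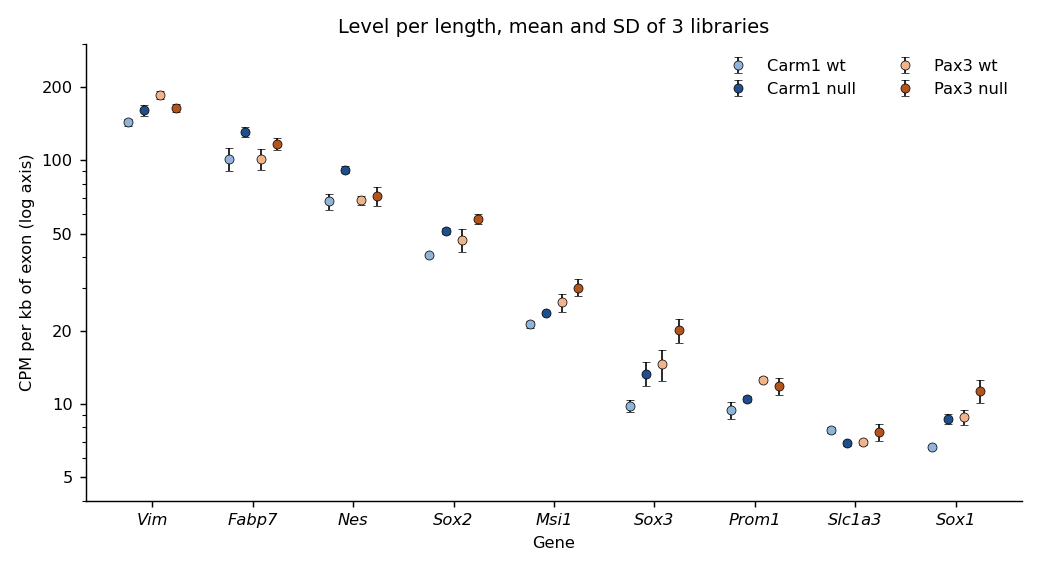
Level of each neural progenitor gene per kb of exon (CPM per kb, log axis) in the 4 groups. Points are means and whiskers the SD of 3 libraries. Vim, Fabp7 and Nes lead in every group, and the lowest genes, Slc1a3 and Sox1, lie between 6.63 and 11.3 CPM per kb.

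Over the 12 libraries, with the mean of each line removed, the 3 SOXB1 genes went together most closely, with Pearson correlations of log2 CPM of 0.96 (*Sox2* with *Sox3*), 0.95 (*Sox1* with *Sox2*) and 0.93 (*Sox1* with *Sox3*). *Msi1* had correlations of 0.91 with *Sox1* and with *Sox2* and 0.92 with *Sox3*. *Vim* stood apart, at 0.03 to 0.09 with the SOXB1 genes, and *Slc1a3* was negative with all 8 others, from -0.73 with *Vim* to -0.25 with *Sox3*. These values describe 12 points that share the contrast between null and wild type. *Pax3* null replicate 3 had the lowest *Nes*, *Sox1*, *Sox2*, *Sox3*, *Msi1* and *Prom1* and the highest *Slc1a3* and *Fabp7* of its group, and it was the only null library with Y-linked counts. With a term for those libraries the same number of progenitor genes, 6, was called in the *Pax3* line, and 7 in the *Carm1* line. In the *Carm1* line wild-type replicate 3 is the only such library, so the term acts as leaving it out.

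Genes whose level over the 12 libraries was most like the mean of the 9 were *Ckb* (0.97), *Npl* (0.96), *Hes5* (0.96), *Nr2f1* (0.96) and *Metrn* (0.95), out of 12052 genes with at least 5 CPM in both lines. *Ckb* encodes the brain creatine kinase, *Hes5* a Notch target and *Nr2f1* the nuclear receptor COUP-TFI. The 5 genes were picked by likeness over libraries that share the contrast between null and wild type. Their tests of that contrast are a description and no separate evidence. *Nr2f1* rose in both lines, by 0.43 (adjusted p = 2.0e-08) and 0.35 (adjusted p = 4.7e-05), and *Ckb* by 0.40 and 0.20 (adjusted p = 3.1e-08 and 0.022). *Npl*, with group means of 6.3 to 8.3 CPM, rose by 0.39 in the *Carm1* line (adjusted p = 0.042, kept in 6 of 15 alternatives). It did not pass in the *Pax3* line (0.21, adjusted p = 0.25). In the *Pax3* line the value of *Ckb* was -0.0066 with length and GC offsets (adjusted p = 0.95), and its call was kept in 11 of 15 alternatives, being lost also without wild-type replicate 1, null replicate 1 or null replicate 2. Among the 9 genes, the correlation with that mean was 0.96 for *Sox2*, 0.83 for *Nes*, 0.28 for *Vim* and -0.41 for *Slc1a3*. Each of the 9 is itself part of the mean, which raises its value, so these cannot be set against the values of the 5 genes.

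Of 24 other genes of the neuroepithelium and radial glia, 10 rose, 3 fell and 11 did not pass the test in the *Carm1* line, with a median log2 fold change of 0.09. Of all 15811 genes tested there, 868 rose and 1238 fell. *Metrn*, a secreted factor of glial cells, rose from 50.6 ± 0.891 to 73.8 ± 2.82 CPM (0.54, adjusted p = 4.2e-09), *Hes5* from 28.9 ± 1.23 to 42.4 ± 4.22 CPM (0.55, adjusted p = 9.3e-07) and *Rfx4* from 19.2 ± 0.613 to 28.3 ± 4.45 CPM (0.56, adjusted p = 4.3e-05; SD, n = 3 each). *Tnc*, which encodes the matrix protein tenascin C and is also made by mesenchyme, fell by 0.33 on the log2 scale (adjusted p = 8.5e-06, and 0.23 in a joint fit of all 12 libraries). In the *Pax3* line 6 of the 24 rose, 3 fell and 15 did not pass, with a median of 0.05. Of all 15724 genes tested there, 2198 rose and 1653 fell. *Fgfr3*, a growth factor receptor, rose by 0.43 (adjusted p = 1.4e-05), *Sox21* by 0.56 (adjusted p = 7.1e-05) and *Hopx* by 0.62 (adjusted p = 0.000659), and the adhesion gene *Cdh2* fell by 0.27 (adjusted p = 0.000809). *Hes5* rose here as well (0.50, adjusted p = 0.0083), but was at 0.16 with length and GC offsets (adjusted p = 0.25) and also lost the call with the term for Y-linked libraries, whereas *Rfx4* was at -0.15 (adjusted p = 0.17).

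Of 13 genes of the next step, in which progenitors commit to become neurons, 6 rose and 7 did not pass the test in *Carm1* null embryos, with a median of 0.20. Of all genes tested in that line, 5.49% rose. The Notch ligand *Dll1* rose by 0.35 (adjusted p = 2.2e-05), *Hes6* by 0.30 (adjusted p = 7.7e-05), and the proneural genes *Neurod4* by 0.71 (adjusted p = 0.000403) and *Neurog1* by 0.53 (adjusted p = 0.0014). In *Pax3* null embryos 5 rose and 3 fell, with a median of 0.17, against 2198 and 1653 of all 15724 genes tested. *Gadd45g* rose by 0.51 (adjusted p = 4.7e-06) and *Insm1* by 0.35 (adjusted p = 0.000738), but *Neurod1* fell by 0.59 (adjusted p = 0.000113) and *Neurod4* by 0.47 (adjusted p = 0.0068). With length and GC offsets *Gadd45g* was at 0.17 (adjusted p = 0.062) and *Insm1* at 0.16 (adjusted p = 0.11), and *Neurod4* lost the call too, as it did without *Pax3* null replicate 3 (adjusted p = 0.071).

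Of 17 genes of postmitotic neurons, 7 fell and 10 did not pass the test in *Carm1* null embryos (median -0.15), led by the microtubule genes *Mapt* (-0.44, adjusted p = 6.9e-08) and *Dcx* (-0.25, adjusted p = 0.000146) and the axon growth genes *Gap43* (-0.25, adjusted p = 0.000197) and *Stmn2* (-0.26, adjusted p = 0.000339). In *Pax3* null embryos 8 fell, 1 rose and 8 did not pass (median -0.18), led by the neurofilament gene *Nefl* (-0.34, adjusted p = 2.0e-05), the motor and sensory neuron gene *Isl1* (-0.42, adjusted p = 0.000233), *Cntn2* (-0.28, adjusted p = 0.000458) and *Elavl4* (-0.30, adjusted p = 0.000617). Over all genes tested, 1238 of 15811 fell in the *Carm1* line and 1653 of 15724 in the *Pax3* line. The summed level of the 17 genes was 2698 to 2769 CPM in *Carm1* null and 2989 to 3183 CPM in *Carm1* wild-type libraries, and 2559 to 2755 CPM in *Pax3* null and 2874 to 3069 CPM in *Pax3* wild-type libraries. The 9 progenitor genes summed to 1914 to 2027 CPM in *Carm1* null and 1614 to 1667 CPM in *Carm1* wild-type libraries, but to 1851 to 1956 and 1844 to 1964 CPM in the *Pax3* line. *Vim* and *Nes* make up most of the sum in both lines. The ratio of the sums was 0.700 to 0.732 in *Carm1* null against 0.524 to 0.541 in *Carm1* wild-type libraries, and 0.672 to 0.759 in *Pax3* null against 0.618 to 0.675 in *Pax3* wild-type libraries, where the groups overlapped.

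**Figure D4:**
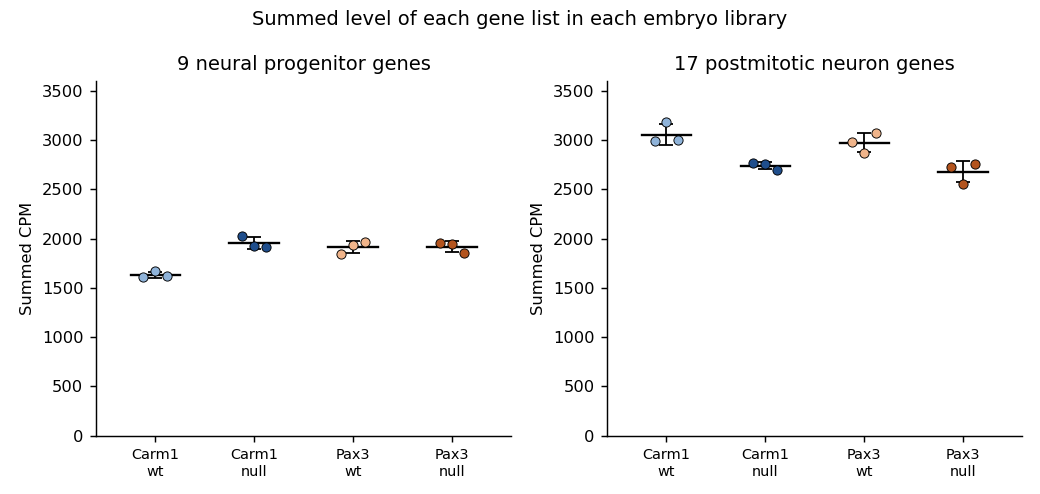
Summed CPM of the 9 neural progenitor genes (left) and of 17 postmitotic neuron genes (right) in the 12 libraries, on vertical axes from 0. Each point is 1 library, bars are means and whiskers the SD of 3 libraries. The progenitor sum is higher in Carm1 null (1914 to 2027 CPM) than in Carm1 wild-type libraries (1614 to 1667 CPM) and overlaps in the Pax3 line, while the neuron sum is lower in the null libraries of both lines.

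Of 15 proliferation genes, 0 were called in the *Carm1* line by edgeR or by DESeq2 (median 0.05), against 13.3% of all genes tested by edgeR. At an unadjusted p under 0.05 edgeR had 2 higher and 2 lower. In the *Pax3* line 3 of the 15 were called, against 24.5% of all genes tested. The mitotic genes *Mki67* (-0.32, adjusted p = 0.0048) and *Bub1* (-0.24, adjusted p = 0.0022) fell and the replication gene *Pcna* rose (0.17, adjusted p = 0.035). DESeq2 called 4 of the 15 lower and 1 higher in that line, and at an unadjusted p under 0.05 edgeR had 5 lower and 2 higher. Markers of other tissues that share some of the 9 genes were also tested. Of all 15811 genes tested in the *Carm1* line, 868 rose and 1238 fell. Of all 15724 genes tested in the *Pax3* line, 2198 rose and 1653 fell. Of 10 mesenchyme markers, 6 fell and 1 rose in *Carm1* null embryos, with the collagen gene *Col1a2* at -0.34 (adjusted p = 1.5e-05), and their sum was 4447 to 4616 CPM against 4928 to 5527 CPM in the wild type. In the *Pax3* line 3 fell and 1 rose, with sums of 3322 to 3781 and 3359 to 4074 CPM. Endothelial markers showed 2 of 8 higher in the *Carm1* line (log2 fold changes of 0.28 for *Tek* and 0.33 for *Emcn*), against 5.49% of all genes. In the *Pax3* line 1 of 8 was higher (0.37 for *Cldn5*, which was at 0.05 with length and GC offsets), against 14.0% of all genes. Of 8 epithelial markers, 0 were called in either line by edgeR or by DESeq2. At an unadjusted p under 0.05 in edgeR, 2 were lower in the *Carm1* line and 1 higher in the *Pax3* line. Of 8 markers of skeletal myoblasts, 3 fell and 1 rose in the *Carm1* line, led by *Myl1* (-0.82, adjusted p = 7.8e-12), and 7 fell in the *Pax3* line, led by *Myod1* (-1.28, adjusted p = 4.4e-10). Of 6 lens crystallin markers tested, 3 fell in *Carm1* null embryos, with *Crybb1* at -0.86 (adjusted p = 0.0036), and 4 rose in *Pax3* null embryos, with *Crybb1* at 0.97 (adjusted p = 2.1e-06). DESeq2 called 1 lower and 3 higher. A single *Carm1* null library stood apart, with a lens sum of 12.2 CPM against 32.3 and 33.6 CPM in the other two and 36.5 to 39.1 CPM in the wild type. No marker in these lists was at 0 over a whole group, and the part of these tissues in the counts of the 9 genes was not tested.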

How the data were processed

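Polyadenylated RNA of whole E12.5 embryos was sequenced as 150 bp paired ends in 12 libraries. The authors aligned reads to mm10 with STAR and counted them on exons with featureCounts, and deposited raw counts per gene and library without normalization. Tool versions, strand and multimapping settings are not given in the sources used here. Groups came from the labels. Genes kept by filterByExpr were tested in each line alone with edgeR 4.0.16 (R 4.3.3, TMM, robust quasi-likelihood test, Benjamini-Hochberg over all genes tested, threshold 0.05), and the line difference as an interaction. The test was first run on simulated counts with the same spread for every gene and planted changes larger than those of the 9 genes. That run does not show how the test behaves at the smaller changes seen here. CPM are TMM-scaled within a line. Loci, exon lengths and overlaps come from GENCODE vM21 (GRCm38), in which 21777 of 23420 symbols were found unchanged and 1262 under a synonym. Promoters come from RefSeq. Likeness used log2(CPM + 1.0), centred within each line. The exact permutation test of 3 against 3 cannot go below 0.1. Alternatives were DESeq2 1.42.0, RLE and upper-quartile factors, 2 other filters, a joint fit, the replicate block, a term for libraries with at least 100 Y-linked counts, length and GC offsets (splines with 5 degrees of freedom), and leaving out each library. In the *Carm1* line the Y-linked term and leaving out wild-type replicate 3 are nearly the same fit. The members and gene lists were chosen with earlier results of these data known. Named genes were all 9 members, the targeted genes, from each list up to 4 called genes with the smallest p per line, and the 5 most alike. *Hes5* and *Rfx4* are also given in the *Pax3* line, chosen after their values were seen. No table held columns of other samples.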

Additional observations from a re-analysis of the deposited data

Results flagged for a closer look

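For 4 of the 9 progenitor genes the effect of the mutation differed between the 2 lines in the interaction test, against 19.1% of the 16292 genes tested. *Nes* differed by 0.38 on the log2 scale (adjusted p = 0.0014), being higher in 3 of 3 *Carm1* null libraries than in any *Carm1* wild-type library and overlapping in the *Pax3* line. *Vim* differed by 0.36 (adjusted p = 0.0014), with all null libraries above the wild type in the *Carm1* line and below it in the *Pax3* line. *Prom1* differed by 0.25 (adjusted p = 0.036) although it was called in neither line, and only 8 of 17 alternatives kept this difference. *Slc1a3* differed by -0.31 (adjusted p = 0.0084), with all null libraries below the wild type in the *Carm1* line. Strain, colony and mutated gene change together between the lines and cannot be told apart. No test for outlying libraries was run within groups, which have 3 libraries each.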

How the results depend on the processing

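The number of progenitor genes called was 8 in the *Carm1* line, 6 in the *Pax3* line and 4 for the line difference. With length and GC offsets it was 3 in the *Pax3* line, where *Ckb* also turned sign (-0.0066). When single libraries were left out it ranged from 5 to 8, from 3 to 5 and from 2 to 4, with the lowest counts without *Carm1* null replicate 1 (5), *Pax3* null replicate 1 (3) and *Pax3* null replicate 3 (2), and the genes called over the whole table ranged from 1224 to 2290, 2454 to 4103 and 2311 to 3390, against 2106, 3851 and 3115. The labels do not say whether replicate numbers pair the samples, and so few pairs cannot settle it. Deviations of same-numbered libraries had correlations of -0.062 to -0.00065 in the *Carm1* line and -0.080 to 0.275 in the *Pax3* line. Libraries of unlike number had -0.38 to 0.26 in the *Pax3* line. With the replicate number as a block, 6, 6 and 4 progenitor genes and 1787, 4177 and 3094 genes in all were called, and the *Carm1* calls of *Vim* and *Msi1* were lost. Among the 9 genes, signs turned only for differences that had not passed the test. With length and GC offsets the line difference of *Sox3* was 0.26 and that of *Msi1* 0.061. Over the libraries left out, the *Nes* fold change in the *Pax3* line ranged from -0.0063 to 0.12, and the line difference from -0.048 to 0.092 for *Sox1*, -0.017 to 0.14 for *Sox2*, -0.10 to 0.11 for *Sox3* and -0.11 to 0.024 for *Msi1*. The cause was not tested. *Nes*, *Sox1*, *Sox2*, *Sox3* and *Fabp7* in the *Carm1* line, *Sox1* and *Sox2* in the *Pax3* line, and the line differences of *Nes* and *Vim* kept direction and call in every alternative run. The least covered gene, *Sox3*, had 365 to 987 counts per library, and each group has 3 libraries.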
